A study of Rattus norvegicus with 10 samples.

Results

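The AP-1 and Egr immediate early factors are described here as 10 genes listed by symbol: Fos, Fosb, Fosl2, Jun, Junb, Jund, Egr1, Egr2, Egr3 and Egr4. All 10 were among the 17168 genes of the count table, and all 10 were among the 12161 genes that passed a filter on low counts. Each of the 10 libraries came from the left hippocampus of a different TgF344-AD rat, a male killed at 11 months. The 5 untreated rats ate plain rodent chow. The 5 RG2833 rats ate chow holding 750 mg of RG2833 per kg from 5 months of age, for 6 months. RG2833 inhibits the histone deacetylases HDAC1 and HDAC3. Both groups carry the same transgenes, which in this line are mutant human APP and presenilin 1 under a prion promoter. Females and animals without the transgenes were not analysed here. All rats were perfused under ketamine and xylazine anaesthesia. One sentence of the design text names another drug, ibudilast, whereas the title and the label of every treated sample name RG2833. The comparison asks how the drug changes gene expression in transgenic males.

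AP-1 is a dimer of basic leucine zipper proteins. Fos proteins typically pair with a Jun protein and not with each other, whereas Jun proteins can also pair among themselves. The Egr proteins bind GC-rich sites through zinc fingers, and the corepressors Nab1 and Nab2 restrain those that carry a Nab-binding domain. In hippocampal neurons Fos, Egr1 and others of these genes are transcribed within minutes of synaptic activity, through the factors SRF and CREB, before any new protein is needed. SRF binds the CArG box and CREB binds the cyclic AMP response element (CRE). Their mRNAs are short-lived.

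Promoter windows were read from RefSeq (assembly GRCr8) for 7 of the 10 members; none was given for Fos, Jun and Egr3. Each covers the 250 bases before the start that the table uses. All 7 are printed. Fosb, Junb, Egr1, Egr2 and Egr4 belong to a set, picked after the values were seen, that tended to vary together between rats. Fosl2 and Jund are outside it. The line is not sharp, as Pearson's r was 0.598 for Jund with Egr1 and 0.399 for Fosb with Egr4. Capitals mark CArG boxes and CRE cores (TGACG on either strand). The window of Egr1 is chr18:26736828-26737077 (plus strand), that of Egr2 chr20:21054442-21054691 (minus) and that of Egr4 chr4:119607818-119608067 (minus). The window of Junb is chr19:40080876-40081125 (plus) and that of Jund chr16:18769772-18770021 (minus). The window of Fosb is chr1:88089185-88089434 (minus) and that of Fosl2 chr6:30039270-30039519 (minus).
Egr1: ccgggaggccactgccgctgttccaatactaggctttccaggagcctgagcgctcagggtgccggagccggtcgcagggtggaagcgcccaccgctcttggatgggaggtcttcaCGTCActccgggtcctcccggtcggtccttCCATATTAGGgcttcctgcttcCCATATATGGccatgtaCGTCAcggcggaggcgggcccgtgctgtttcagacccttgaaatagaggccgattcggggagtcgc
Egr2: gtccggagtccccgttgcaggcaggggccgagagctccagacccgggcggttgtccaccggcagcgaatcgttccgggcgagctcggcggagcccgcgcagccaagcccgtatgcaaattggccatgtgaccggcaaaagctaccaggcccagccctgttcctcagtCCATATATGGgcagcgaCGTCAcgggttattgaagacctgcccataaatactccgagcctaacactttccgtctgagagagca
Egr4: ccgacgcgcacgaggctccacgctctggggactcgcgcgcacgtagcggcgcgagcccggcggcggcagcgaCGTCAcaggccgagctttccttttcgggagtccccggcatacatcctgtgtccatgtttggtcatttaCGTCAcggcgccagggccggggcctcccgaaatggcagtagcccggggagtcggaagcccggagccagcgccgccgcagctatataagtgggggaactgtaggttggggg
Junb: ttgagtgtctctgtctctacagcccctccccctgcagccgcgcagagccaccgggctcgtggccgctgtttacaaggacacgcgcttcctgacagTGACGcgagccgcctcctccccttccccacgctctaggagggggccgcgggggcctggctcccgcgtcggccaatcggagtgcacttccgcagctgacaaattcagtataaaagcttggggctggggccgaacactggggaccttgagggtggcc
Jund: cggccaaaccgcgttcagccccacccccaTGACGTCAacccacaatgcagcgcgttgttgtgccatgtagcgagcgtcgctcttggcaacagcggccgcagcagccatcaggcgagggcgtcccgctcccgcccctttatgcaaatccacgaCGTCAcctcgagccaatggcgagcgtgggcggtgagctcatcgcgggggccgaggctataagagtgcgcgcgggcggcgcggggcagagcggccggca
Fosb: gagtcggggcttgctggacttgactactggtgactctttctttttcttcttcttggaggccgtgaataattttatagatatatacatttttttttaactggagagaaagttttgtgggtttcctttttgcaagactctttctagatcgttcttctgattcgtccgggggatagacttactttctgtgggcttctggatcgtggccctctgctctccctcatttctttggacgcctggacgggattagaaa
Fosl2: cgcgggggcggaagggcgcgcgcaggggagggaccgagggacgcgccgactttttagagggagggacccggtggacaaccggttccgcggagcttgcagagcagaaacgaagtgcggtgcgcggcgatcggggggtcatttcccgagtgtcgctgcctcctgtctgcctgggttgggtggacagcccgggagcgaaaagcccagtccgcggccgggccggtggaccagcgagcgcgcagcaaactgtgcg

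CArG boxes were found in Egr1 (2 boxes, whose first bases lie at -105 and -83 from the start) and in Egr2 (1 box, at -83). Of all 33469 windows of the same length, 1.5% hold one. CRE cores stood in 5 of the 7 windows, once in Egr2 and Junb, 2 times in Egr1 and Egr4 and 3 times in Jund, against 18.2% of all windows with at least 1. In Jund a pair of these cores overlap to form the full CRE TGACGTCA, which 1.59% of all windows hold. The AP-1 site TGANTCA (6.34% of all windows) was in none of the 7 members' windows. The Egr site GCGTGGGCG (either strand, 0.478% of all windows) was in that of Jund alone. The windows of Fosb and Fosl2 held none of these 5 motifs. These matches describe the letters only.

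No member passed the comparison of RG2833 with untreated rats. Of the 10 members, 0 had an edgeR adjusted p under 0.05, and among all 12161 genes 0 (0%) did. At an unadjusted p under 0.05 edgeR gave 688 genes. By other tools, DESeq2 called 7 genes after adjustment and limma 0, and no member was among them. One member, Junb, had an unadjusted p under 0.05 and was lower under RG2833; over all genes tested 5.66% had such a p in either direction and 2.71% in the lower direction. The estimated level was lower in RG2833 rats for 9 of the 10 members, Fosl2 being the exception, where 53.5% of all genes were lower. The median log2 fold change was -0.18 over the members and -0.01 over all genes. The members' median was -0.31 without untreated replicate 5. Sample-weighted limma-voom gave a median of -0.05, with 7 of the 10 lower. Several of the members varied together between rats, as described further on, so the 9 genes are not 9 separate observations. The groups overlapped for each of the 10 members. Over all genes they were apart for only 1.00%, so this overlap does not set the members apart. Untreated replicate 3 stood apart in marker genes, given further on. Without it 7 of the 10 members were lower, and Junb alone had an unadjusted edgeR p under 0.05, a level reached by 14.2% of all genes in that fit.

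The plot of levels by library gives each rat's value in CPM, the count scaled to a library size corrected by the trimmed mean of M-values (TMM). The deposited table gives no transcript lengths, so levels were compared between rats for one gene and not between genes. In bulk tissue, fewer cells of a type and less RNA per cell cannot be told apart.

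**Figure D1:**
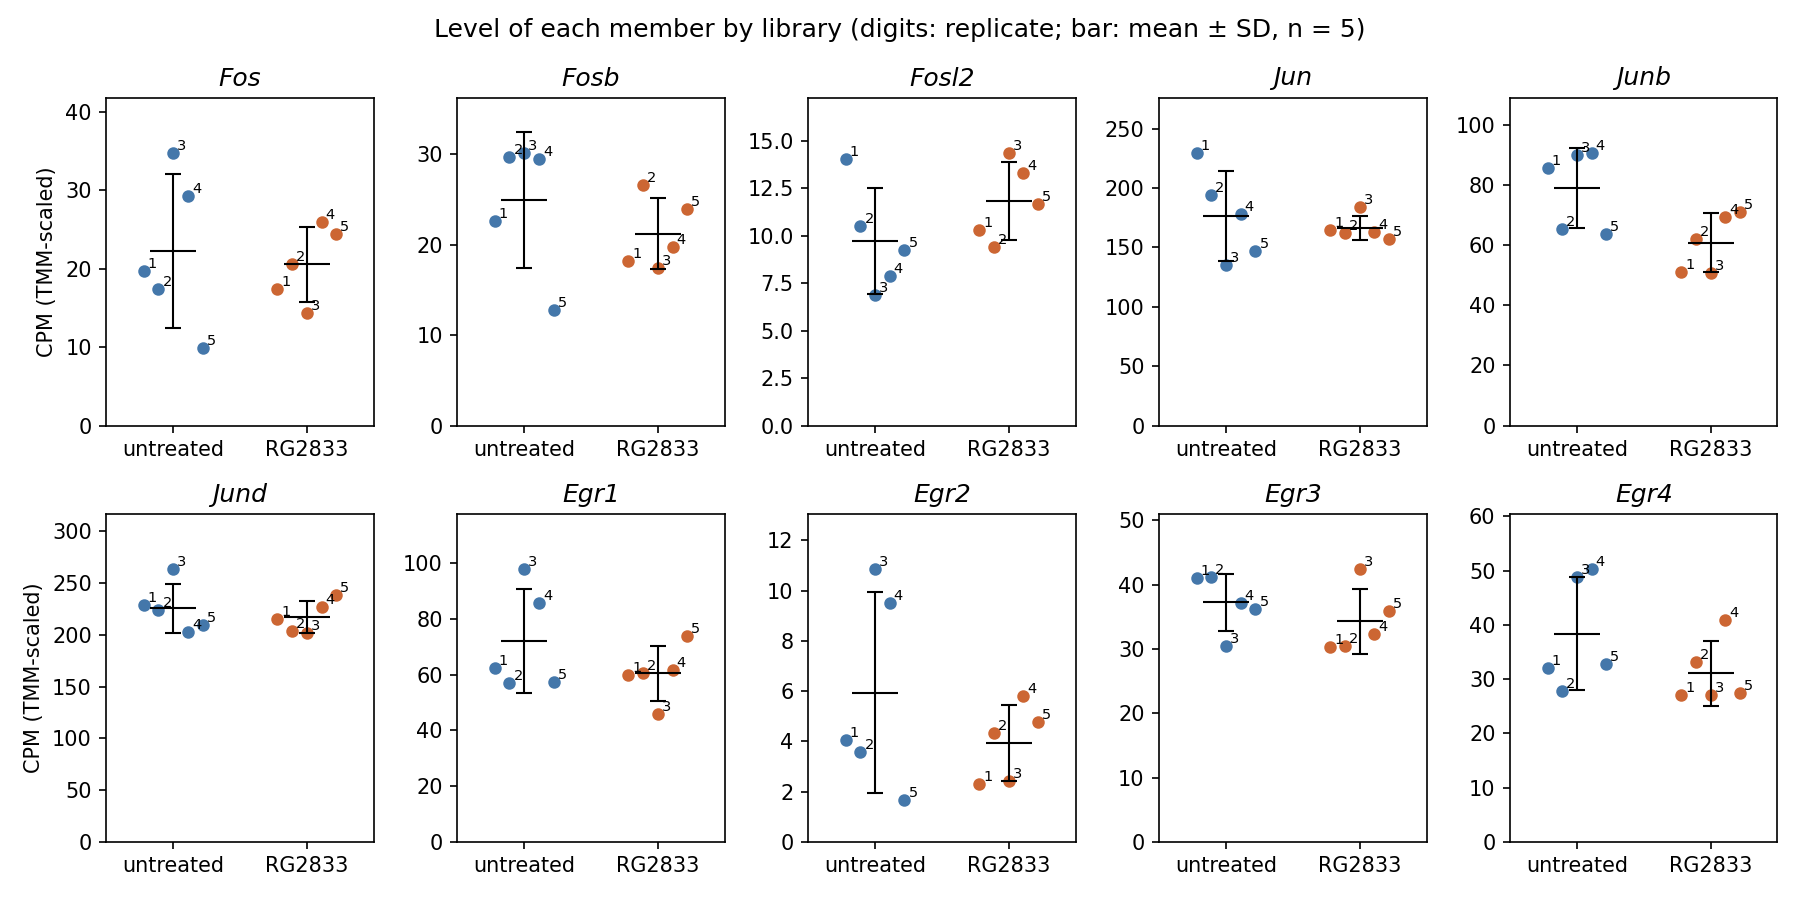
Level of each of the 10 members in CPM (vertical axes, starting at 0) in the 5 untreated and 5 RG2833 libraries. Points are single rats with their replicate number, and bars are the mean ± SD. The groups overlap in all 10 panels, and untreated replicates 3 and 4 stand at the top for Fos, Egr1, Egr2 and Egr4.

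Fos, the prototype immediate early gene, whose protein binds DNA as a dimer, typically with a Jun protein, was the widest-ranging of the Fos family. Its levels in untreated replicates 1 to 5 were 19.7, 17.5, 34.8, 29.3 and 9.93 CPM, and in RG2833 replicates 1 to 5 they were 17.4, 20.6, 14.4, 25.9 and 24.5 CPM. The highest and the lowest rat were both untreated, and all RG2833 values lay between them. RG2833 minus untreated gave a log2 fold change of -0.11 (SE 0.30, 95% interval -0.77 to 0.55; edgeR adjusted p = 0.980). Its direction was set by single rats, with a log2 fold change of 0.10 without untreated replicate 3 and 0.0064 without untreated replicate 4, against -0.30 without untreated replicate 5.

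Fosb encodes a close relative of Fos, and a truncated splice form of it, ΔFosB, is stable and accumulates with repeated activity; gene-level counts do not separate the forms. Untreated levels were 22.6, 29.8, 30.2, 29.5 and 12.8 CPM and RG2833 levels 18.2, 26.6, 17.5, 19.8 and 24.0 CPM. Untreated replicates 2, 3 and 4 were above every RG2833 rat, while untreated replicate 5 was below every one. The fitted log2 fold change was -0.24 (SE 0.22, 95% interval -0.73 to 0.25; edgeR adjusted p = 0.920). Without untreated replicate 5 it was -0.40, with an unadjusted edgeR p of 0.0194 and an adjusted p of 0.999, where the adjusted p over its 20 alternatives ran from 0.765 to 1.00. Its sign turned to 0.0600 in limma-voom with sample weights.

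Fosl2 (Fra-2) lacks the strong activation domain of Fos and Fosb and is usually induced later. It was the only member with a higher estimate under RG2833. Untreated rats had 14.1, 10.5, 6.86, 7.90 and 9.28 CPM, and RG2833 rats 10.3, 9.43, 14.4, 13.3 and 11.7 CPM. Every RG2833 rat was above the 3 lowest untreated rats, but untreated replicate 1 was exceeded only by RG2833 replicate 3. Its log2 fold change was 0.28 (SE 0.19, 95% interval -0.14 to 0.71; edgeR adjusted p = 0.881). It was 0.18 without untreated replicate 3. Without untreated replicate 1 it was 0.45, with an unadjusted edgeR p of 0.0203 and an adjusted p of 0.913.

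Junb encodes a Jun protein that activates less strongly than Jun and can dampen it. It gave the clearest difference of the 10 members, without passing. Untreated rats had 85.5, 65.3, 89.8, 90.7 and 63.6 CPM. RG2833 rats had 51.1, 62.0, 50.6, 69.3 and 71.0 CPM. Untreated replicates 1, 3 and 4 were above every RG2833 rat, whereas untreated replicates 2 and 5 fell below RG2833 replicates 4 and 5. Means were 79.0 ± 13.4 CPM for untreated and 60.8 ± 9.71 CPM for treated rats (SD, n = 5 each). That gave a log2 fold change of -0.38 (SE 0.14, 95% interval -0.68 to -0.07), with an unadjusted edgeR p of 0.0206 and an adjusted p of 0.841. An exact permutation test (two-sided) gave p = 0.0635, where the smallest possible is 0.00794. Its sign was the same in all 20 alternatives, from -0.32 to -0.45, and its unadjusted p was under 0.05 in 16 of them; the adjusted p ran from 0.346 to 1.00.

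Jun, whose protein pairs with Fos and with itself, had log2 fold changes near 0. Untreated rats had 229.7, 194, 135, 178 and 147 CPM, and RG2833 rats 165, 162.5, 184, 162.6 and 157 CPM. The RG2833 rats lay close together inside the untreated range. The estimate was a log2 fold change of -0.09 (SE 0.13, 95% interval -0.38 to 0.20; edgeR adjusted p = 0.955), and it ran from -0.17 without untreated replicate 3 to 0.02 without untreated replicate 1.

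Jund is transcribed more constantly than the other Jun genes in most tissues, and it was the steadiest member. Untreated rats had 229, 224, 264, 203 and 209.5 CPM, and RG2833 rats 215, 203.5, 202, 227 and 238 CPM. The highest rat exceeded the lowest by 1.31-fold. Between groups the log2 fold change was -0.06 (SE 0.08, 95% interval -0.24 to 0.13; edgeR adjusted p = 0.955), and it ran from -0.09 without untreated replicate 4 to 0.0061 without untreated replicate 3.

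Egr1 (Zif268), used widely as a mark of hippocampal plasticity, was at 62.3, 57.0, 97.9, 85.6 and 57.2 CPM in untreated rats. In RG2833 rats it was at 59.7, 60.7, 45.9, 61.8 and 73.9 CPM. Untreated replicates 3 and 4 stood above all RG2833 rats, and the other 3 untreated rats lay among them. For Egr1 the log2 fold change was -0.25 (SE 0.17, 95% interval -0.64 to 0.13; edgeR adjusted p = 0.881). Leaving out untreated replicate 3 gave -0.12, and leaving out RG2833 replicate 3 gave -0.17.

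Egr2 (Krox20), which also directs myelination by Schwann cells in peripheral nerve, had the lowest counts of the members, 31 to 182 per library. Untreated rats had 4.04, 3.59, 10.9, 9.49 and 1.68 CPM, and RG2833 rats 2.32, 4.32, 2.43, 5.82 and 4.77 CPM. Untreated replicates 3 and 4 were the highest and untreated replicate 5 the lowest of the 10 rats, the highest exceeding the lowest by 6.46-fold. The log2 fold change was the largest of the members, -0.59, and so was its error (SE 0.47, 95% interval -1.63 to 0.46; edgeR adjusted p = 0.904). It moved from -0.25 without untreated replicate 3 to -0.83 without untreated replicate 5, and limma-voom with sample weights gave -0.02.

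Egr3, whose protein shares the zinc finger type of Egr1, was at 41.1, 41.2, 30.5, 37.2 and 36.3 CPM in untreated rats. RG2833 rats had 30.3, 30.5, 42.5, 32.3 and 35.9 CPM. The 3 lowest values came from both groups and were nearly equal. Egr3 had a log2 fold change of -0.12 (SE 0.11, 95% interval -0.37 to 0.13; edgeR adjusted p = 0.920). It was -0.21 without RG2833 replicate 3, -0.18 without untreated replicate 3 and -0.08 without RG2833 replicate 1.

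Egr4, which lacks the Nab-binding domain of the other Egr proteins, was at 32.0, 27.9, 48.8, 50.3 and 32.8 CPM in untreated rats. RG2833 rats had 27.1, 33.1, 27.1, 40.8 and 27.5 CPM. As for Egr1 and Egr2, untreated replicates 3 and 4 exceeded all RG2833 rats. Egr4 had a log2 fold change of -0.30 (SE 0.19, 95% interval -0.71 to 0.11; edgeR adjusted p = 0.852), from -0.18 without untreated replicate 4 to -0.42 without RG2833 replicate 4.

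**Figure D2:**
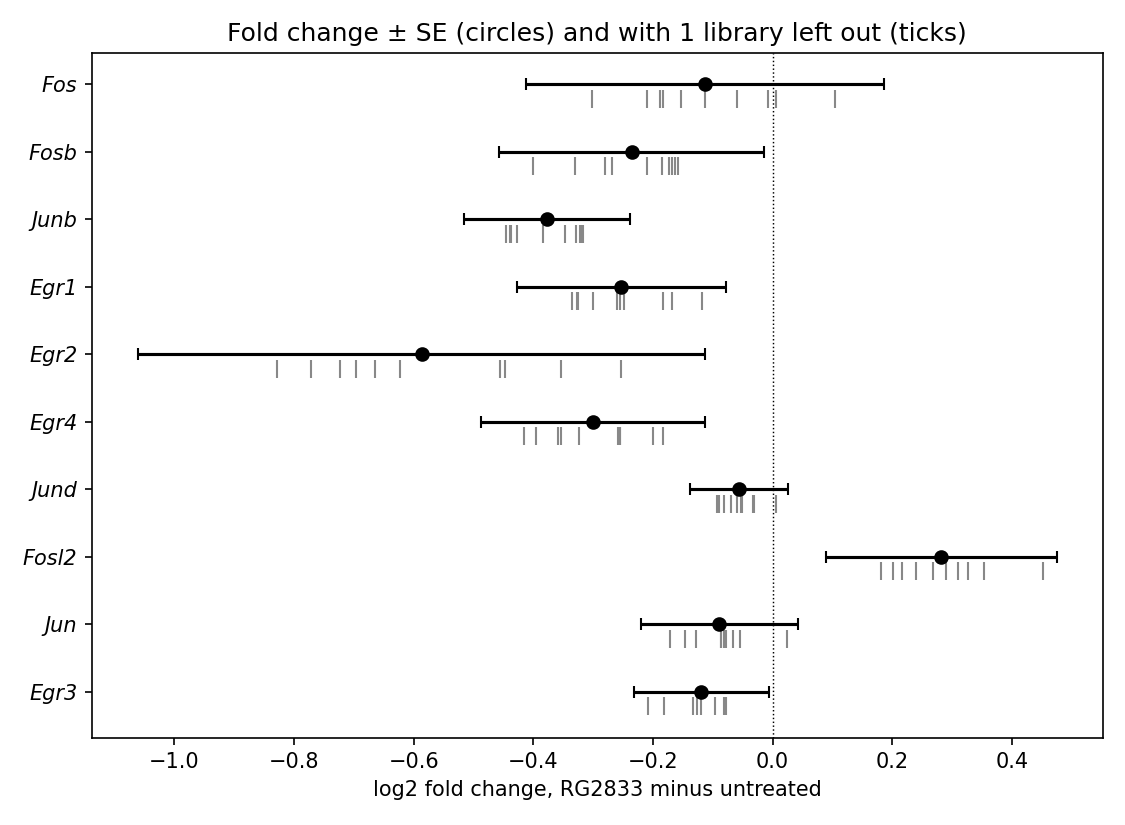
Log2 fold change of each member, RG2833 minus untreated (horizontal axis), with circles and bars for the estimate ± SE over 10 libraries and grey ticks for the 10 fits that each left out 1 library. Junb lies at -0.38 with all ticks from -0.45 to -0.32, Fosl2 alone lies above 0 at 0.28, and the ticks of Fos, Jun and Jund fall on both sides of 0.

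The spread between rats differed widely among the members. The biological coefficient of variation, which is the spread between rats beyond counting noise in edgeR's model, was 51.1% for Egr2 and 33.3% for Fos. By this measure they stood at the 97.2 and 91.8 percentile of all genes tested. Fosb was at 25.2%, Fosl2 at 22.2%, Egr4 at 21.6% and Egr1 at 20.4%, between the 73.3 and 83.3 percentile. Junb (16.8%), Jun (15.6%) and Egr3 (14.1%) were nearer the middle, and Jund (10.9%) was at the 22.9 percentile. Among the 1000 genes nearest in level, 9 of the 10 members ranked at or above the 68.0 percentile, and Jund was at the 35.3 percentile.

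**Figure D3:**
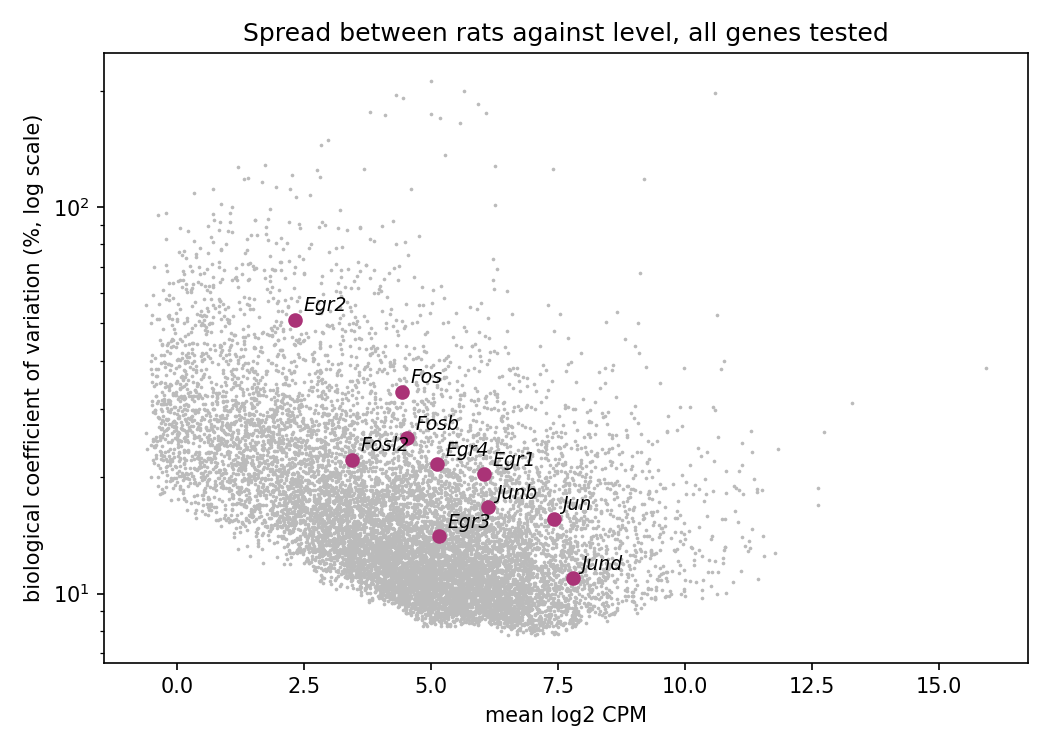
Biological coefficient of variation in percent (vertical log axis) against mean log2 CPM (horizontal axis) for all 12161 genes tested (grey) and the 10 members (purple). Egr2 (51.1%) and Fos (33.3%) lie in the upper part of the cloud, and Jund (10.9%) in its lower part.

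Within groups, the coefficient of variation of CPM was larger among untreated than among RG2833 rats for 9 of the 10 members, all but Egr3. For Jun it was 21.4% and 6.22%, for Fos 44.3% and 23.3%, and for Egr2 67.5% and 38.7%. Of all genes tested, 68.3% were also more variable among untreated rats, so the members' share was read against that. Without untreated replicate 3 the count was 8 of 10, while the share of all genes dropped to 42.0%. Without untreated replicate 5 it was 7 of 10, against 70.3% of all genes. The difference in spread between the groups was not tested.

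Across rats, 6 members tended to go up and down together: Fos, Fosb, Junb, Egr1, Egr2 and Egr4. This set was picked after the values were seen and is a description. Untreated replicates 3 and 4 were among the 3 highest rats for each of the 6, with Egr2 1.34 and 1.15 above its mean over 10 libraries on the log2 scale. Untreated replicate 5 had the lowest Fos (-1.02), Fosb (-0.80) and Egr2 (-1.27) of the 10 rats. RG2833 replicate 3 had the lowest Junb and Egr1, and RG2833 replicates 1 and 3 had equally low Egr4 to the digits printed. Both extremes of Fos, Fosb and Egr2 were thus found among rats of one group. Fosl2, Jun and Egr3 followed another order. Untreated replicate 3 had the lowest Fosl2 (-0.60) and Jun (-0.33), and RG2833 replicate 3 the highest Fosl2 (0.45) and Egr3 (0.26).

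**Figure D4:**
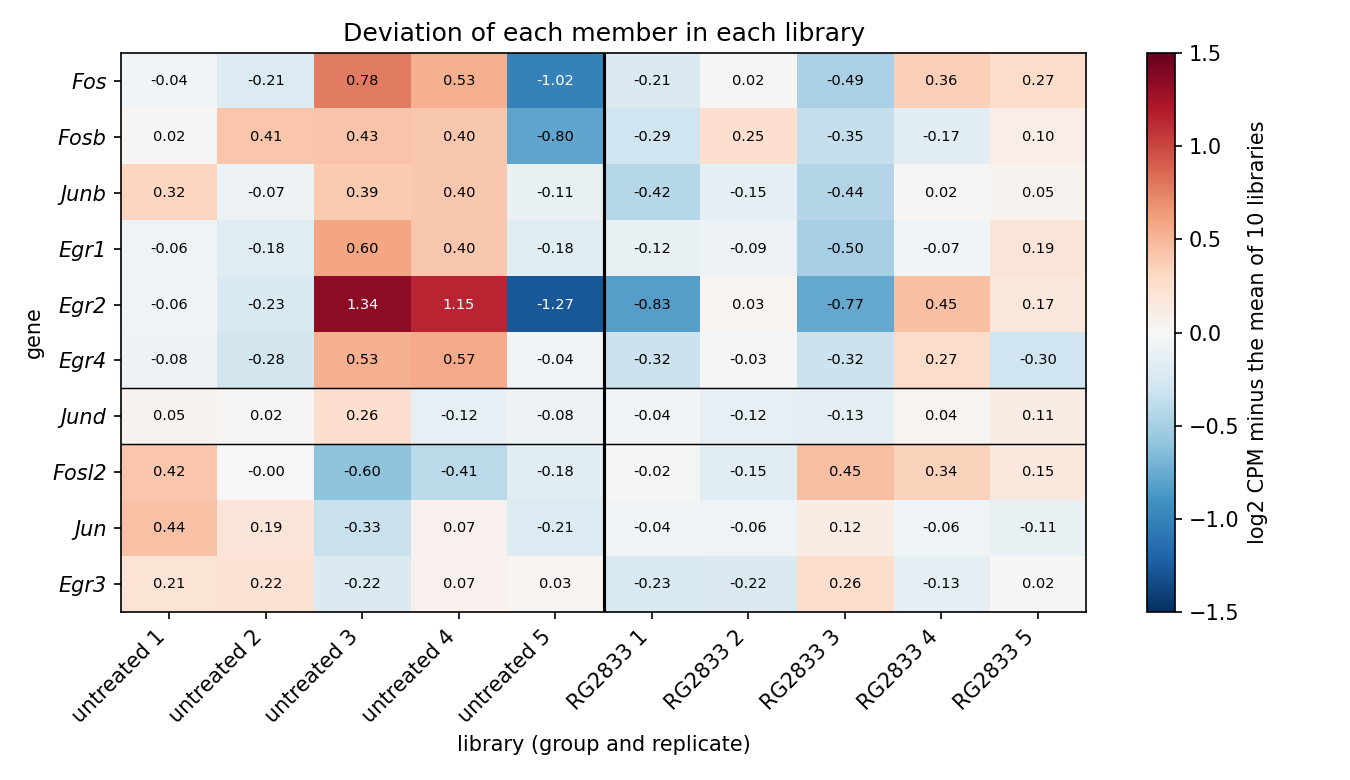
Log2 CPM of each member minus its mean over the 10 libraries (colour and printed value), genes in rows and libraries in columns, with a line between untreated and RG2833. Untreated replicates 3 and 4 are high in the upper 6 rows, as in Egr2 at 1.34 and 1.15, and untreated replicate 3 is low for Fosl2 (-0.60) and Jun (-0.33) in the lower 3.

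Pearson's r of log2 CPM was computed over the 10 libraries for all 45 pairs of members, with permutation p-values (100000 resamples) adjusted over the 45. Of these pairs, 8 had an adjusted permutation p under 0.05, each of them positive and between 2 of those 6 members. The 6 members form 15 pairs, so not all pairs within the set passed. The lowest r among them was 0.399 (Fosb with Egr4), with an adjusted permutation p of 0.388. The closest pair was Fos with Egr2, at r = 0.956 (Spearman's rho 0.988; permutation p = 1e-05 for both, the smallest that the resamples can give; adjusted permutation p = 0.00045 for both). It was 0.992 within untreated and 0.934 within RG2833 rats. Without untreated replicates 3 and 5, the 2 rats farthest from the median of Fos, r was 0.933, and this pair passed in each of the 10 sets that left out 1 rat. Fos with Egr1 had r = 0.805 and rho 0.879 (raw permutation p = 0.00535 and 0.00149, adjusted 0.0408 and 0.0335), and r was 0.895 without the same rats.

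Of the other 6 pairs past the threshold, Egr1 with Egr2 and Junb with Egr1 also passed by rho. Egr1 with Egr2 had r = 0.847 and rho 0.842 (raw permutation p = 0.00247 and 0.00386, adjusted 0.0408 and 0.0434), and r was 0.561 without untreated replicates 3 and 4. Junb with Egr1 had r = 0.811 and rho 0.867 (raw permutation p = 0.00485 and 0.00228, adjusted 0.0408 and 0.0342), and r was 0.614 without the same rats. Junb with Egr2 had r = 0.796 and rho 0.770 (raw permutation p = 0.00629 and 0.0121, adjusted 0.0408 and 0.0905), and r was 0.571 without those rats.

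Fosb with Egr2 had r = 0.796 and rho 0.721 (raw permutation p = 0.00616 and 0.0243, adjusted 0.0408 and 0.122), and r was 0.606 without untreated replicate 5 and RG2833 replicate 3. Fos with Fosb had r = 0.780 and rho 0.733 (raw permutation p = 0.00751 and 0.0195, adjusted 0.0422 and 0.122), and r was 0.452 without untreated replicates 3 and 5. Egr2 with Egr4 had r = 0.801 and rho 0.721 (raw permutation p = 0.00635 and 0.0240, adjusted 0.0408 and 0.122), and r was 0.883 without those rats. By rho, 4 of the 8 pairs passed. In the sets that left out 1 rat, 1 to 6 of all 45 pairs passed, with 1 pair without untreated replicate 3, RG2833 replicate 1 or RG2833 replicate 2. Egr1 with Egr2 passed in 6 of these 10 sets, and each of the remaining 6 of the 8 pairs in 2. After each group's mean was subtracted, 4 pairs passed: Fos with Egr2 (r = 0.979), Junb with Egr2 (0.871), Fos with Egr1 (0.866) and Fos with Junb (0.863).

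Fosl2, Jun and Egr3 correlated positively with each other, from 0.498 (Fosl2 with Egr3) to 0.709 (Jun with Egr3). None of these 3 pairs passed the adjustment. Of the 18 pairs between these genes and the 6 others, 15 were negative, from -0.720 (Fosl2 with Egr1) to 0.114 (Fosb with Jun), and 0 passed. Jund had r from 0.248 (Egr4) to 0.598 (Egr1) with the 6 genes, and 0 of these passed.

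**Figure D5:**
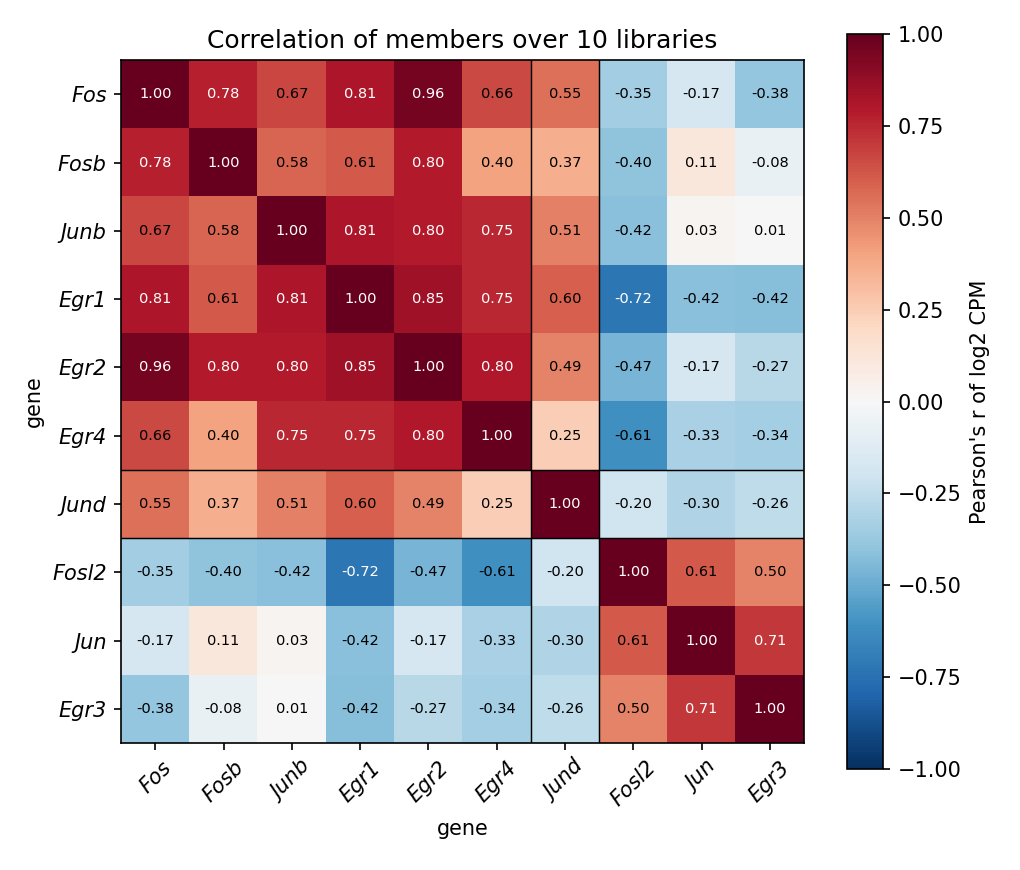
Pearson's r of log2 CPM over 10 libraries for each pair of members (colour from -1 to 1 and printed value). The upper left block of Fos, Fosb, Junb, Egr1, Egr2 and Egr4 is positive throughout, from 0.40 to 0.96, the lower right block of Fosl2, Jun and Egr3 from 0.50 to 0.71, and 15 of the 18 values between them are negative.

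Levels of many other genes moved with the same rats. With group means subtracted, r with Fos was 0.5 or more for 22.1% of 12151 other genes and -0.5 or less for 25.1%. Among 43 other activity-induced genes, the number at 0.5 or more was 17 (39.5%) with Fos, 17 with Egr2 (22% of all other genes), 17 with Junb (21.2%) and 19 (44.2%) with Egr1 (24.6%). At 0.5 or more with Fosb were 13 of the 43 (30.2%, against 6.81% of all other genes), and with Egr4 11 (25.6%, against 17%). For Fosl2 the count at 0.5 or more was 7 (16.3%, against 11.8%), for Egr3 8 (18.6%, against 13%), for Jun 11 (25.6%, against 21.7%) and for Jund 11 (25.6%, against 26.6%). In the opposite direction, at -0.5 or less, stood 15 of the 43 with Egr1 (34.9%, against 28% of all other genes), 14 with Jund (32.6%, against 27.3%), 13 with Fos (30.2%, against 25.1%) and 13 with Egr2 (30.2%, against 25.2%). With Junb it was 12 (27.9%, against 23.6%) and with Egr4 9 (20.9%, against 19.8%). At -0.5 or less with Fosb was 1 (2.33%, against 6.41%), with Fosl2 3 (6.98%, against 8.4%), with Egr3 3 (6.98%, against 10.2%) and with Jun 2 (4.65%, against 18.3%). For Fos, Junb, Egr1, Egr2 and Egr4 the share of activity-induced genes was above that of all genes at 0.5 or more. At -0.5 or less it was closer to that of all genes, as for Egr4 (20.9% against 19.8%). These differences were not tested. The 5 genes most like the mean of the 10 standardised members, over 10 libraries with group means subtracted, were Rgl3 (r = 0.951), Pex5 (0.940), Htr2a (0.916), Dusp1 (0.906) and Rps6ka3 (0.905), out of 11367 genes compared. They were picked as the highest of those genes over few rats, so a high r comes with the choice, and no test was run. That mean also joins members that mostly correlated negatively with each other across the 2 sets above. Dusp1, a phosphatase of MAP kinases and itself an immediate early gene, was at 64.3, 41.4, 106, 67.6 and 27.6 CPM in untreated rats. In RG2833 rats it was at 42.7, 64.5, 40.4, 67.2 and 92.3 CPM. Its highest and lowest rats were untreated replicates 3 and 5, as for Fos.

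Markers of hippocampal cell types differed between the same libraries. Of 10 dentate granule cell markers, 9 were in the table and 1 of these, Tdo2, was at 0 in every library. Untreated replicate 3 had the lowest sum, 283 CPM. The remaining untreated rats had 569 to 861 CPM, and the RG2833 rats 421 to 748 CPM. The 8 pan-neuronal markers summed to 3032 CPM in that rat, where the remaining untreated rats had 4168 to 5058 CPM and the RG2833 rats 3387 to 4648 CPM. In the same library the 10 microglia markers were at 966 CPM, while the rest of its group had 503 to 557 CPM and the RG2833 group 546 to 781 CPM. CA3 pyramidal cell markers (8 of 9 in the table) summed to 168 CPM there and to 469 to 546 CPM in the rest of its group, and the RG2833 group had 203 to 496 CPM. Untreated replicate 5, which was lowest in Fos, Fosb and Egr2, had the highest sum of CA1 pyramidal cell markers (7 of 9 in the table), 1217 CPM, where the rest of its group had 505 to 724 CPM. The CA1 sum was 724 to 1075 CPM in the RG2833 group. Between groups, 0 markers of any of the 14 lists passed in edgeR. An unadjusted edgeR p under 0.05 was given to 3 of 8 interneuron markers tested (median log2 fold change of the list -0.11), 2 of 7 neocortex markers (-0.02), 1 of 6 thalamus markers (-0.22), 1 of 6 CA1 markers (0.27), 1 of 9 astrocyte markers (0.33) and 1 of 7 mural cell markers (0.00082). In the other 8 lists 0 markers had such a p, and the list medians ran from -0.49 (red blood cells) to 0.26 (endothelium). Over all genes tested, 5.66% had such a p in either direction. The medians are of whole lists and do not give the direction of single markers. Astrocyte markers summed to 6847 to 10640 CPM in untreated and 7894 to 11680 CPM in RG2833 rats. For 9 of 10 endothelial markers in the table the sum was 549 CPM in untreated replicate 3, 286 to 479 CPM in the rest of its group and 338 to 628 CPM in the RG2833 group. No marker of the pan-neuronal, microglia or endothelial lists was at 0 in all libraries. Untreated replicate 3 was thus lowest in Fosl2, Jun and dentate markers and highest in Fos, Egr1 and Egr2; the part of cell makeup in these values was not tested. Untreated replicate 4, which was next highest in Fos, Egr1 and Egr2, had 569 CPM of dentate, 4543 CPM of pan-neuronal and 557 CPM of microglia markers. Neocortex markers (7 of 8 in the table, none at 0 throughout) were high in both of these rats, at 291 and 227 CPM, where the remaining untreated rats had 148 to 180.2 CPM. They were also high in RG2833 replicates 4 and 5, at 256 and 289 CPM, where the remaining treated rats had 167 to 169 CPM. Those 2 treated rats had the highest Fos, Egr1 and Egr2 of their group. They also had its lowest dentate (431 and 421 CPM), CA3 (280 and 203 CPM) and pan-neuronal sums (3433 and 3387 CPM). Their microglia (730 and 781 CPM), endothelial (496 and 628 CPM) and astrocyte sums (11510 and 11680 CPM) were the highest of that group. Thalamus markers (6 of 7 in the table) ran from 74.2 to 124 CPM in untreated rats, highest in replicate 4, and from 65.8 to 95.9 CPM in RG2833 rats. The part of neocortex or thalamus tissue, or of other cell makeup, in the members' values was not tested. Choroid plexus markers ran from 109 to 11930 CPM. Without the 2 libraries richest in them, untreated replicate 2 and RG2833 replicate 1, 9 members were again lower and Junb alone had an unadjusted edgeR p under 0.05, where 4.9% of all genes did. In that fit the log2 fold change was -0.12 for Fosb and -0.05 for Egr3.

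The genes that act with the members were examined as lists. Of 17 other proteins that can pair with AP-1 members, 12 were tested, 3 higher and 9 lower in RG2833 rats, and 0 passed in either direction (median log2 fold change -0.08, against -0.01 over all genes). Atf3, a stress-induced partner of Jun, had the smallest p of the list. Untreated rats had 3.35, 6.81, 7.58, 12.4 and 1.47 CPM, and RG2833 rats 2.13, 5.05, 1.34, 1.57 and 4.29 CPM. Its log2 fold change was -1.13 (SE 0.55; edgeR adjusted p = 0.841), and it was -0.74 without untreated replicate 4. Sample-weighted limma-voom gave -0.50. Its highest rat was untreated replicate 4 and the groups overlapped. Jdp2, a repressor that pairs with Jun, had a log2 fold change of -0.17 (SE 0.11; edgeR adjusted p = 0.847), which was -0.11 without RG2833 replicate 5. Both Egr corepressors were tested and neither passed: the log2 fold change was -0.17 (SE 0.08) for Nab2 and 0.13 (SE 0.09) for Nab1, the latter 0.06 without RG2833 replicate 5.

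Among 42 entries for kinases, phosphatases and transcription factors that act upstream, 33 were tested, 14 higher and 19 lower, and 0 passed (median log2 fold change -0.01). The smallest p-values were those of Camk4, a nuclear kinase of CREB, at -0.30 (SE 0.16), and Gsk3b, a kinase of Jun, at 0.13 (SE 0.09); neither had an unadjusted p under 0.05. Camk4 was at 40.8 CPM in untreated replicate 3 and at 20.01 to 27.1 CPM in the other 9 rats, and its log2 fold change was -0.13 without that rat. That of Gsk3b was 0.08 without untreated replicate 2. Of 46 entries for other activity-induced genes, 43 were tested, 15 higher and 28 lower, and 0 passed (median -0.11). Unadjusted edgeR p-values were under 0.05 for 3 of the 43, all lower, where 2.71% of all genes were lower at that level. Rgs2, a regulator of G protein signalling, ranged from 18.4 to 21.1 CPM without the drug and from 15.01 to 17.9 CPM with it, and the groups did not overlap (log2 fold change -0.23, SE 0.08; exact permutation p = 0.00794, the smallest possible; edgeR adjusted p = 0.841). Every gene whose groups are apart has this exact permutation p, and 1.00% of all genes were apart. Gadd45g, a growth arrest gene, had a log2 fold change of -0.46 (SE 0.15). Cyr61, a secreted matrix protein, had one of -0.91 (SE 0.40) and was at 5.32 to 32.7 CPM in untreated rats and 6.59 to 14.7 CPM in RG2833 rats. Its unadjusted p was under 0.05 in 9 of the 20 alternatives and was 0.164 with the replicate block; limma-voom with sample weights gave -0.34.

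Of 26 genes described as targets of AP-1 or Egr proteins, 24 were tested, 12 higher and 12 lower, and 0 passed in edgeR (median log2 fold change 0.01). Mt2A, a metal-binding metallothionein, was at 41.4, 50.7, 45.01, 49.0 and 54.3 CPM in untreated rats. RG2833 rats had 63.3, 66.6, 79.1, 62.0 and 88.2 CPM. All RG2833 rats were above all untreated rats, where the groups were apart in either direction for 1.00% of all genes. The log2 fold change was 0.58 (SE 0.11), with an unadjusted edgeR p of 0.000354 and an adjusted p of 0.841. That adjusted p was the smallest of all genes. It was shared by genes with a larger unadjusted edgeR p, such as Atf3 (0.0644). DESeq2 gave Mt2A an adjusted p of 0.0112. Penk, the enkephalin precursor, ranged from 31.6 to 57.4 CPM without the drug and from 27.6 to 36.3 CPM with it. Penk had a log2 fold change of -0.40 (SE 0.15; edgeR adjusted p = 0.841), which was -0.26 without untreated replicate 3. Sample-weighted limma-voom gave -0.22.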

How the data were processed

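RNA of 10 libraries was made into stranded mRNA libraries, per the labels' protocols. The submitters' processing notes name bcl2fastq 2.17, Bowtie2 2.1.0, RSEM 1.2.15, edgeR and the build rn6, with no role or order; the annotation and any use of strand in counting are not given in the sources used here. The authors deposited RSEM expected counts per gene (11.6% of values not whole; 15118203 to 18533520 per library) and, as a second table, a TMM-normalized CPM signal. Dividing each library's deposited signal by its smallest step gave whole reads for 100% of values (tolerance 0.01), and 99.9% of the reads so recovered equalled the rounded expected counts. The quasi-likelihood test on the recovered reads called 0 genes.

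Expected counts were rounded and fitted with edgeR 4.0.16 in R 4.3.3: filterByExpr (minimum count 10, minimum total 15), TMM, robust quasi-likelihood F test across all 12161 genes, Benjamini-Hochberg adjustment, threshold 0.05. Log2 CPM used a prior count of 2. Alternatives used DESeq2 1.42.0 and limma 3.58.1. The fit was tested on simulated data. Sequences came from RefSeq (GRCr8); 10 of 10 members matched by symbol.

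The members and lists were chosen with earlier results of these data known. All members were named. Of each list of related genes, those with an unadjusted p under 0.05 were named and, where fewer than 2, the 2 with the smallest p. The 5 genes most like the members' mean had a symbol and at least 1 CPM. No 2 libraries were counted as 1: every one of the 45 pairs had a chi-square per gene of 7.38 or more, far above the value of about 1 from sampling noise.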

Additional observations from a re-analysis of the deposited data

Results flagged for a closer look

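Among 48 sets of 5 values (log2 CPM of the 10 members and the summed level of 14 marker lists, in each group), 4 held a library far from the other 4, where chance gives about 2.4. A library was singled out where the distance to its closest neighbour took over 0.71 of the group's range on the log2 scale. In untreated replicate 3 the CA3 pyramidal cell sum was low, at 168 CPM (0.871 of the range), and the microglia sum was high, at 966 CPM (0.845). The choroid plexus sum was high in untreated replicate 2, at 11040 CPM (0.724), and in RG2833 replicate 1, at 11930 CPM (0.853). In no member did a library stand apart in this way.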

How the results depend on the processing

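The number of members with an adjusted p under 0.05 was 0 in edgeR and in all 20 alternatives, DESeq2 and limma included. At an unadjusted p under 0.05 there was 1 with all libraries, 0 with the replicate block, and 0 to 2 when 1 library was left out. Over all genes that share was 5.66% with all libraries, 3.3% with the block, 10.4% in limma-voom with sample weights and 3.07% to 14.2% with 1 library left out. The number of members was 0 without untreated replicate 4, RG2833 replicate 1 or RG2833 replicate 3, each of which ended the call of Junb at that level. It was 2 without untreated replicate 1 (Fosl2 and Junb) or untreated replicate 5 (Fosb and Junb). Over all genes, DESeq2 called 7, and it called 1 of the AP-1 or Egr targets, Mt2A; the cause was not tested. The log2 fold change of Fos reversed to 0.19 in limma-voom with sample weights, and that of Fosb to 0.0600. With 1 library left out, Fos ran from -0.30 to 0.10 (positive without untreated replicate 3, and 0.0064 without untreated replicate 4), Jun from -0.17 to 0.0234 (positive without untreated replicate 1) and Jund from -0.0924 to 0.0061 (positive without untreated replicate 3). Pairs of members past the threshold numbered 8 with all libraries, 4 with group means subtracted, 3 without the 2 libraries farthest from the median, and 1 to 6 with 1 library left out; the cause was not tested. Same-numbered libraries had correlations of their deviations from -0.487 to -0.034, and 0 of 5 untreated libraries were most like their own number. These correlations run over all genes and cannot show whether equal replicate numbers mark paired rats. With the replicate block, edgeR called 0 genes, and 401 in place of 688 had an unadjusted p under 0.05. The alternatives on recovered reads and on the correlations and spread with 1 library left out were chosen after seeing the data. Depth was lowest for Egr2 among the members, at 31 to 182 counts per library.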
